A study of Papio papio with 23 samples.

Results

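The genes described here carry the names of the eukaryotic translation initiation factors (EIF1 to EIF6), measured in the blood of irradiated baboons. They were chosen by name: a gene name that begins with EIF and a digit from 1 to 6, leaving out the EIF2AK kinases, with a probe well above background on at least 4 of 23 arrays. Of 53 names that matched, 50 passed, out of 21167 genes tested. EIF3IP1 and EIF4E1B were well above background on 0 arrays and EIF4E3 on 2, and these 3 were left out. The rule used no difference between groups. Of the 50 probes used, 47 were well above background on all 23 arrays and 0 were saturated on any.

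Initiation factors bring the small ribosomal subunit, the initiator tRNA and the mRNA together and find the start codon. eIF2 delivers the initiator tRNA and is recharged with GTP by eIF2B, and stress kinases that phosphorylate eIF2 alpha block this exchange and lower translation as a whole. eIF3 is a large scaffold on the small subunit. eIF4E binds the mRNA cap, eIF4G bridges the cap to the ribosome, eIF4A unwinds the leader, and the 4E-BP proteins, which mTOR phosphorylates, keep eIF4E from eIF4G. Lymphocytes that are activated raise the output of this machinery, and lymphocytes are among the cells most quickly lost from blood after irradiation. The 4 genes named EIF2C1 to EIF2C4 are Argonautes, the small RNA binding proteins of RNA silencing, which were first named as an initiation factor and are now called AGO1 to AGO4.

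RNA came from peripheral whole blood of adult male Papio papio, aged 8.1 years on average with a spread of 3.3, and was hybridised to human single-colour arrays. Group H0 holds 5 baboons sampled before irradiation. The irradiated baboons are grouped by the category of haematologic acute radiation syndrome (HARS, the failure of blood formation after irradiation) that they developed: H1-2, low to medium, with 4 baboons, and H2-3, medium to severe, with 5 baboons. Each irradiated baboon was sampled on day 1 and again on day 2. The irradiated baboons were exposed to 60Co gamma rays under anaesthesia, as total or partial body exposure, at an equivalent whole-body dose of 2.5 or 5 Gy. Dose and field are given for the study and not for each animal, so each category can mix them, and the labels do not tie the H0 baboons to the irradiated baboons or set them apart. The study screened for transcripts that differ in the first 2 days. The arrays of a group are numbered as separate baboons, so p-values against H0 and between categories measure the spread between animals, pooled over the 5 groups. The main fit treats the day 1 and day 2 arrays of a baboon as separate, so its p-values between days leave out the pairing.

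A level is the log2 of a probe's signal minus that of its array's 75th percentile, and a difference is the log2 difference of 2 group means ± its standard error. A gene is said to have risen or fallen, or is called, when its Benjamini-Hochberg adjusted p in limma, over all genes tested, was under 0.05. The level of one gene's probe is not set against that of another, because probes bind with unequal strength. The probes are human, so a base that differs in the baboon can lower a signal.

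The blood markers showed the lymphoid to myeloid shift that initiation factors are read against. The mean level of 12 T cell markers was 3.32 to 4.29 in H0, 1.82 to 3.21 in H1-2 on day 1 and 0.27 to 2.68 in H2-3 on day 1, and 11 of the 12 fell in H2-3 against 4 in H1-2. Of 8 B cell markers 7 fell in H2-3 on both days and 0 in H1-2, and of 12 NK and cytotoxic markers 11 fell in H2-3 and 8 in H1-2 on day 1. All 11 neutrophil markers and 8 of 9 monocyte markers rose there, while 0 of 12 erythroid markers were called and their mean stayed at 6.14 to 7.00 against 5.88 to 7.08. On day 2 in H2-3, 7 of 11 neutrophil, 7 of 9 monocyte and 5 of 9 platelet markers were above H0. In H2-3 on day 1, 1 B cell marker and 1 NK and cytotoxic marker were well above background on no array, and every T cell, neutrophil, monocyte, erythroid and platelet marker tested was on some array. In whole blood, fewer cells of a type and less RNA per cell cannot be told apart, and the part of this shift in the results below was not tested. All day 2 arrays were scanned on a day of their own, so day 2 cannot be told apart from that scan day. Of the H0 arrays, baboons 3 to 5 were scanned with the day 1 arrays and baboons 1 and 2 on another day. In H1-2 the day 1 array of baboon 3 correlated best with the day 2 array numbered 4 (r = 0.58 over deviations from the group means across genes, against 0.16 with its own number), and that of baboon 4 with number 3 (0.62 against 0.06). Baboons 1 and 2 of H1-2 also correlated slightly better with each other's number (0.43 and 0.41) than with their own (0.38 and 0.39), and H2-3 baboon 1 with number 5 (0.13 against 0.05).

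Few initiation factors were called. In H2-3 on day 1, 3 of 50 members rose (EIF4EBP1, EIF4G3, EIF2C4) and 2 fell (EIF2B3, EIF2D), which is 6% and 4%, while 14.9% of all genes rose and 13.5% fell. On day 2 in H2-3, 2 members rose (EIF4E2, EIF2C4) and 0 fell, beside 10.3% and 4.47% of all genes. H1-2 on day 1 had 0 members called, although 4.17% of all genes rose and 4.42% fell. At an unadjusted p under 0.05, 3 members were higher and 13 lower, beside 5670 of all 21167 genes in either direction. H1-2 on day 2 had 0 members called and 0% of all genes. There 3 members were higher at an unadjusted p under 0.05, beside 2235 of all genes in either direction. The median difference over the 50 members was -0.20, 0.10, -0.11 and 0.03 in H1-2 on days 1 and 2 and H2-3 on days 1 and 2, against 0.09, -0.01, 0.14 and -0.03 over all genes. These 4 comparisons share the H0 arrays.

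**Figure D1:**
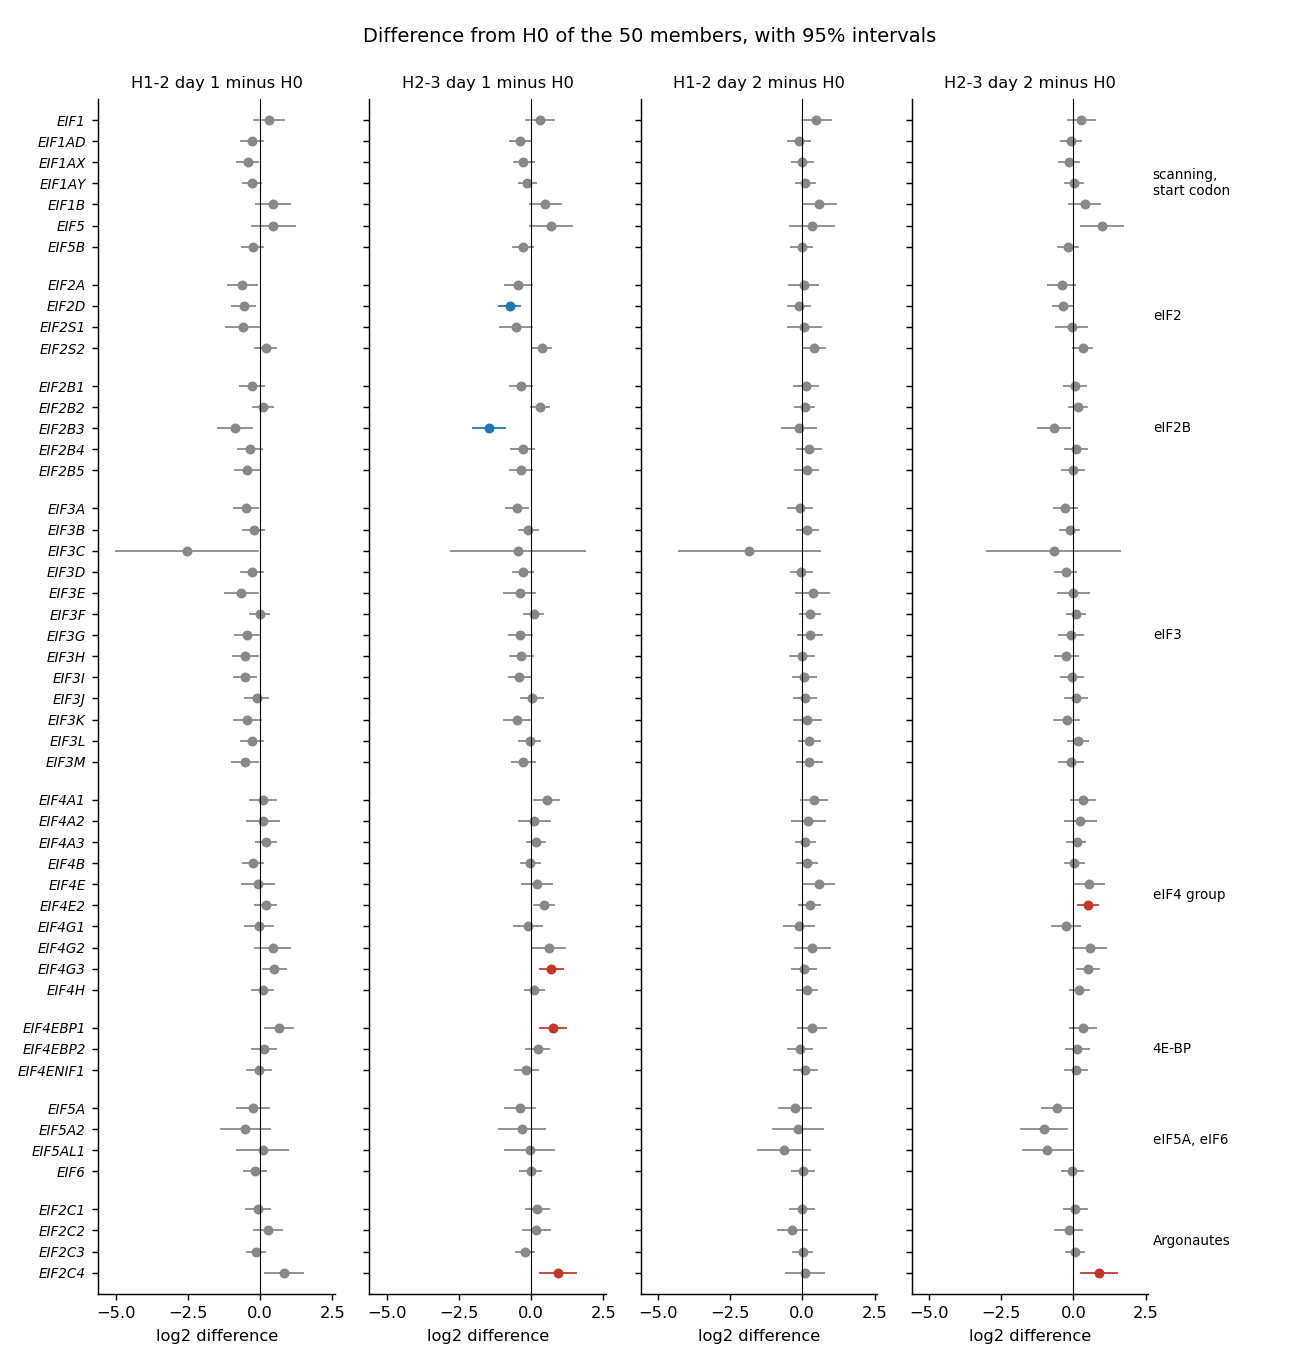
Log2 difference from H0 (x axis) of each of the 50 members, ordered by role, in the 4 groups after irradiation. Points are differences of group means, bars are 95% intervals, red marks members that rose and blue members that fell at an adjusted p under 0.05; the eIF2, eIF2B and eIF3 blocks lie mostly left of 0 on day 1, and the called members are the 5 of H2-3 on day 1 and the 2 of H2-3 on day 2.

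The count of members called depends on how arrays are scaled. The scaling used here sets the 75th percentile of all probes equal, and the median gene then lay 0.14 above H0 in H2-3 on day 1. With the percentile taken over probes well above background on all arrays, that median was -0.05, a shift of the whole scale. Then 16 members were called in H2-3 on day 1, 1 higher and 15 lower, beside 2052 genes of all that rose and 3842 that fell. Quantile normalization called 14 (3 higher, 11 lower), beside 2591 genes of all that rose and 3379 that fell, where the main scaling gave 3162 and 2849. For H1-2 on day 1 the same 2 scalings called 5 and 6 members, all lower, and the split of all genes moved from 882 higher and 936 lower to 755 and 1557, and to 726 and 1381. For H2-3 on day 2 the percentile over detected probes called 2 members, both lower (EIF2B3 and EIF5A2), and turned the split of all genes from 2175 higher and 947 lower to 1560 and 2030. That EIF2B3 call rests on the probe used, and its other probes are given below.

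EIF2B3, the gamma subunit of eIF2B, had the smallest adjusted p of all members. Its levels in H0 were 0.98, 0.89, 0.73, 1.90 and 1.44. In H2-3 on day 1 they were -0.46, -0.24, -0.29, -0.37 and -0.03, so all 5 arrays lay below every H0 array. In H1-2 on day 1 they were -0.23, 0.15, 1.08 and 0.31, with baboon 3 inside the H0 range and the other 3 below it. On day 2 they were 0.80, 0.68, 1.07 and 1.79 in H1-2, with 3 of 4 arrays inside the H0 range, and -0.03, 0.42, 0.80, 0.35 and 1.00 in H2-3, where 3 of 5 arrays remained below H0. EIF2B3 fell in H2-3 on day 1 by 1.46 ± 0.27 (adjusted p = 0.000522), a level 2.76-fold lower. The differences were -0.87 ± 0.28 in H1-2 on day 1 (adjusted p = 0.0584) and -0.68 ± 0.27 in H2-3 on day 2 (adjusted p = 0.0803). In H1-2 on day 1 EIF2B3 was called lower with the percentile over detected probes (-0.98, adjusted p = 0.0392) and quantile normalization (-0.90, 0.0476). It was also called there without H0 baboon 3 (-0.98, 0.0317) or H1-2 baboon 3 (-1.12, 0.023). The deposited value table and normexp background correction did not call it there.

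EIF2B3 has 2 other probes, both dimmer than the probe used. They gave -0.76 and -0.22 in H2-3 on day 1 and -0.27 and -0.14 in H1-2 on day 1, and the second was well above background on 12 of 23 arrays. All 3 probes gave a lower mean than H0 on day 1 in both categories, by unequal amounts. On day 2 the other probes gave -0.01 and 0.22 in H2-3, where the probe used gave -0.68. In H1-2 on day 2 they gave 0.46 and 1.00. The lower level of EIF2B3 in H2-3 on day 2 thus rests on the probe used. With the mean of the 3 probes, the difference in H2-3 on day 1 was -0.81 (adjusted p = 0.0503).

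The probes of EIF2D and EIF4G3, both called in H2-3 on day 1, are shown. Showing a probe required a forward frame without a stop codon, so the open frame is a condition and not a result. Each is 60 bases long and reads without a stop codon in 1 of its 3 forward frames. Both lie on the minus strand of human chromosome 1 in hg19, at chr1:206770472-206770531 for EIF2D and chr1:21133933-21133992 for EIF4G3. The exon or untranslated region they fall in was not looked up, since no annotation of that build was used here. The sequences are given 5′ to 3′ in lower case, with no part set in capitals.
EIF2D: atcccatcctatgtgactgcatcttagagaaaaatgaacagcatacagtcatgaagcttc
EIF4G3: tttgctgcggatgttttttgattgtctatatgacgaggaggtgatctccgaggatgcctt

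The other 4 eIF2B subunits were not called in any comparison. EIF2B5, the catalytic epsilon subunit, was at 2.19, 2.26, 1.59, 2.37 and 1.98 in H0, at 1.41, 1.52, 2.13 and 1.46 in H1-2 on day 1 and at 1.5, 1.68, 1.56, 1.79 and 2.12 in H2-3 on day 1, and the groups overlapped. Its differences were -0.45 ± 0.20 and -0.35 ± 0.19 (adjusted p = 0.153 and 0.178). EIF2B1 and EIF2B4, the regulatory alpha and delta subunits, lay at -0.34 and -0.30 in H2-3 on day 1, and EIF2B2, the beta subunit, at 0.30. Whether the subunits differ from each other was not tested. With the percentile over detected probes, EIF2B1 and EIF2B5 were called lower there too, at -0.53 and -0.53 (adjusted p = 0.0307 and 0.0456). On day 2 the differences of these 4 from H0 were between -0.01 and 0.23 in both categories.

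EIF2D, which can place tRNA on the ribosome without GTP and is not a subunit of eIF2, fell in H2-3 on day 1. Its H0 levels were 2.08, 2.17, 1.88, 2.32 and 2.08. On day 1 they were 1.47, 1.31, 1.82 and 1.54 in H1-2 and 1.33, 1.35, 1.42, 0.94 and 1.77 in H2-3. Every day 1 array lay below every H0 array, in both categories. On day 2 the levels were 1.84, 1.69, 2.08 and 2.40 in H1-2 and 1.47, 1.86, 1.97, 1.62 and 1.80 in H2-3. They overlapped H0 again. The fall was -0.74 ± 0.18 in H2-3 on day 1 (adjusted p = 0.00323), 1.68-fold lower, and the difference in H1-2 was -0.57 ± 0.19 (adjusted p = 0.0572). EIF2D was called lower in H1-2 on day 1 with the percentile over detected probes (-0.69, adjusted p = 0.0306) and quantile normalization (-0.64, 0.0346). The deposited value table (-0.64, 0.0403) and normexp background correction (-0.45, 0.0447) also called it there. So did the fits without H0 baboon 3 (-0.63, 0.0367) or H1-2 baboon 3 (-0.66, 0.041).

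eIF2 itself was represented by its alpha subunit EIF2S1, the target of the stress kinases, and its beta subunit EIF2S2. EIF2S1 was at -1.48, -1.03, -0.90, -0.81 and -0.62 in H0, at -1.40, -1.35, -1.58 and -1.99 in H1-2 on day 1 and at -1.90, -1.60, -1.76, -1.22 and -1.05 in H2-3 on day 1. The day 1 groups overlapped with H0. The differences were -0.61 ± 0.28 and -0.54 ± 0.27 (adjusted p = 0.163 and 0.137). With the percentile over detected probes EIF2S1 was called lower in H2-3 on day 1 (-0.72, adjusted p = 0.0413). Within the first scan day it was called lower there too (-0.73, 0.0378). EIF2S2 depended on the probe. The probe used was at 0.19 and 0.36 on day 1 and 0.42 and 0.32 on day 2, and was not called, although all 4 arrays of H1-2 on day 2 (0.13 to 0.39) lay above all 5 of H0 (-0.58 to 0.10). Its other probe, well above background on all 23 arrays, gave -0.48 and -0.29 on day 1 and -0.08 and -0.27 on day 2. EIF2A, another tRNA carrier that is not the alpha subunit despite its name, was at 0.43 to 1.23 in H0 and at 0.03 to 0.50 and 0.15 to 0.61 on day 1, with adjusted p of 0.105 and 0.158. In H2-3 on day 1 EIF2A was called lower with the percentile over detected probes (-0.63, adjusted p = 0.0459) and within the first scan day (-0.61, 0.0315).

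No eIF3 subunit was called, and most of their differences on day 1 were negative. H1-2 had all 13 differences negative on day 1 with a median of -0.45, and 7 had an unadjusted p under 0.05. For H2-3, 11 of 13 were negative with a median of -0.35, and 3 had such a p. On day 2 the medians were 0.17 in H1-2 and -0.08 in H2-3. Taken per array as the median of the 13 subunits relative to the H0 mean, H0 ran from -0.18 to 0.22, H1-2 on day 1 from -0.61 to -0.14 and H2-3 on day 1 from -0.41 to -0.04, so the ranges overlapped slightly. The median of all genes was 0.09 and 0.14 in the 2 categories on day 1. Of all 21167 genes, 5670 in H1-2 and 8207 in H2-3 had an unadjusted p under 0.05 on day 1, in either direction.

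Among them, EIF3I, a WD repeat subunit, was at 3.61, 3.37, 3.45, 3.91 and 3.74 in H0. It was at 2.70, 3.12, 3.45 and 3.14 in H1-2 on day 1 and at 3.12, 3.00, 3.03, 3.26 and 3.64 in H2-3 on day 1. Baboon 3 of H1-2 and baboon 5 of H2-3 were inside the H0 range and the other 7 below it. The differences were -0.52 ± 0.19 and -0.41 ± 0.18 (adjusted p = 0.0823 and 0.0904). EIF3E, which docks the complex and is also known as INT6, was at -0.66 ± 0.27 and -0.40 ± 0.26. Its levels ran from 4.17 to 5.22 in H0, from 3.70 to 4.32 in H1-2 on day 1 and from 4.11 to 4.57 in H2-3 on day 1. EIF3H, a partner of EIF3F in the complex, ran from 7.48 to 7.61 in H0, from 6.71 to 7.19 in H1-2 and from 7.00 to 7.36 in H2-3 on day 1, without overlap with H0, and its adjusted p were 0.113 and 0.188. EIF3A, the largest subunit, was at -0.49 and -0.48, EIF3K at -0.44 and -0.49, and EIF3F, a subunit with an MPN domain, at -0.02 and 0.08.

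The count of eIF3 calls moved with the scaling and with the arrays used. Setting the percentile over detected probes, or quantile normalization, called 6 subunits lower in H2-3 on day 1, EIF3A, EIF3D, EIF3G, EIF3H, EIF3I and EIF3K in both, and the deposited value table called the same 6. All 13 differences were then negative in both categories. In H1-2 the 3 settings called 3, 4 and 3 subunits, and EIF3A, EIF3H and EIF3I were among them each time. Of all genes, these settings called 3842, 3379 and 3321 lower in H2-3 on day 1, against 2849 in the main scaling. In H1-2 they called 1557, 1381 and 1163 lower, against 936. Under normexp background correction, 12 of 13 subunits were negative in each category and 1 was called, EIF3A in H2-3. On day 1 at least 11 of 13 subunits were thus below H0 under each of these 5 settings, while calls ran from 0 to 6. With the scaling unchanged, EIF3A was called lower in H2-3 on day 1 with the scan day as a block (-0.65, adjusted p = 0.0295), without H0 baboon 2 (-0.60, 0.0222) and without H2-3 baboon 3 (-0.55, 0.045). EIF3G and EIF3K were called there without H0 baboon 3 (-0.52 and -0.62), and EIF3I and EIF3K without H2-3 baboon 5 (-0.51 and -0.61). EIF3D's other probe gave 0.37 and 0.25 on day 1, opposite to the probe used, and EIF3J's other probe -0.40 and -0.40.

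**Figure D2:**
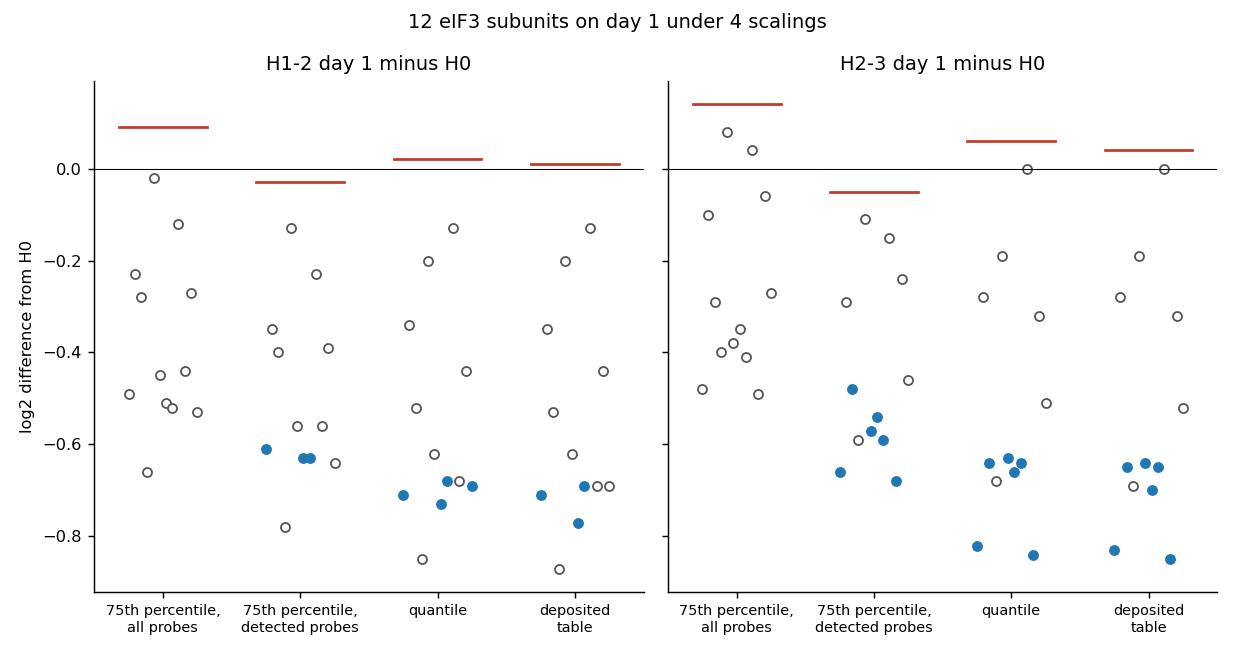
Log2 difference from H0 (y axis) of 12 eIF3 subunits, without EIF3C, on day 1 in H1-2 (left) and H2-3 (right) under 4 ways of scaling the arrays. Each circle is a subunit, filled where its adjusted p was under 0.05, and the red line is the median over all genes; every subunit plotted lies below that line, and filled circles appear under the 3 alternatives only.

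EIF3C could not be read from a single probe. The probe used, the brighter by its mean, ranged from 0.66 to 3.13 in H0, from -3.90 to 1.80 in H1-2 on day 1 and from -4.55 to 2.02 in H1-2 on day 2. Very low levels were seen in H1-2 on day 1 in baboons 2 (-1.98) and 4 (-3.90) and on day 2 in baboon 3 (-4.55). The other probe stayed between -1.89 and -0.28 on all 23 arrays and gave -0.52 and -0.56 on day 1 in H1-2 and H2-3. EIF3C has a near-identical copy, EIF3CL, so its signal is uncertain. Whether that copy has a part in the very low levels was not tested. The EIF3C difference of -2.53 ± 1.18 in H1-2 on day 1 was not called (adjusted p = 0.172).

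**Figure D3:**
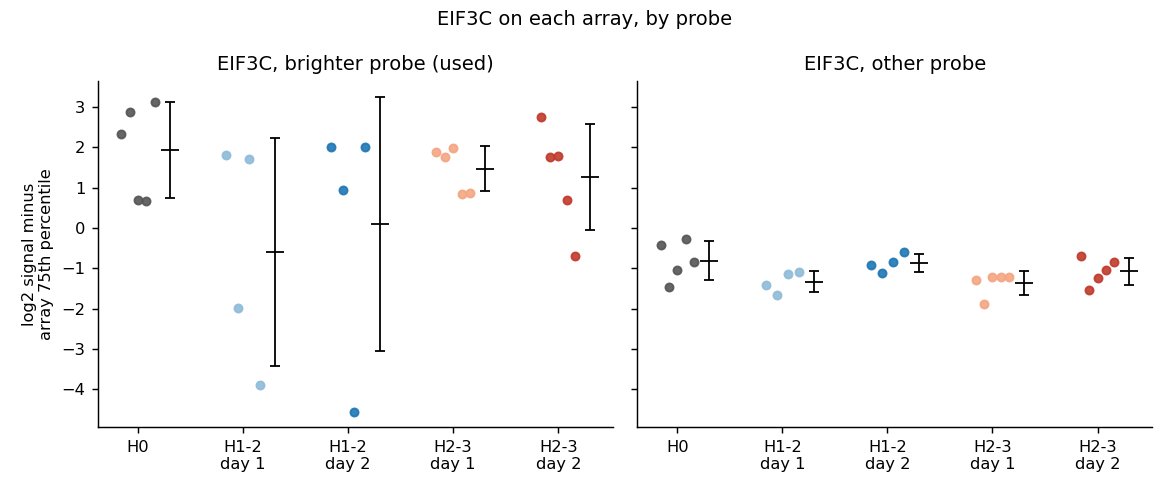
EIF3C level on each array (y axis, log2 signal relative to the array's 75th percentile) by group, for the probe used (left) and the other probe (right). Points are arrays and bars are the mean ± SD; the left panel holds 3 arrays of H1-2 below -1.9, while the right panel spans -1.89 to -0.28.

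Around the cap, EIF4G3 was called higher in H2-3 on day 1. EIF4G3, another eIF4G scaffold, was at 1.21, 0.99, 1.33, 1.07 and 0.75 in H0 and at 1.88, 1.92, 1.88, 1.53 and 1.66 in H2-3 on day 1, all above H0. On day 1 in H1-2 it was at 1.90, 1.68, 1.28 and 1.38, with 3 of 4 above H0. It was at 1.22, 1.43, 0.76 and 1.13 in H1-2 and 1.94, 1.46, 1.05, 1.72 and 1.70 in H2-3 on day 2. H1-2 was back within or near the H0 range by day 2, while 4 of 5 arrays of H2-3 stayed above it. EIF4G3 rose in H2-3 on day 1 by 0.70 ± 0.19 (adjusted p = 0.00714), 1.63-fold, and its difference was 0.50 ± 0.19 on day 2 (adjusted p = 0.0663). Its 2 other probes gave 0.63 and 0.18 on day 1, and the mean of the 3 probes gave 0.51 (adjusted p = 0.0772). EIF4G2, which lacks the eIF4E site, was at 0.61 in H2-3 on day 1 (adjusted p = 0.102), and with the mean of its 2 probes it was called higher on day 1 (0.72, adjusted p = 0.02) and day 2 (0.67, 0.0465). EIF4G1, the main scaffold, was at -0.11 on day 1. The paralogues were not tested against each other.

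EIF4E2, a cap-binding homologue of eIF4E known for repressing mRNAs, rose in H2-3 on day 2. It was at 4.92, 5.29, 5.18, 5.58 and 5.09 in H0 and at 5.61, 5.58, 5.38, 6.16 and 5.88 on day 2 in H2-3. The highest H0 array reached the lower part of the H2-3 range. The rise was 0.51 ± 0.17 (adjusted p = 0.0455), and on day 1 the difference was 0.44 ± 0.17 (adjusted p = 0.0558). This call did not hold without H0 baboon 1, 2, 3 or 5 or H2-3 baboon 2, 4 or 5, with adjusted p between 0.0545 and 0.145 and differences between 0.40 and 0.55. Quantile normalization gave 0.29 (adjusted p = 0.189) and the percentile over detected probes 0.35 (0.0915). Its other probes gave 0.65 and 0.26 on day 2. In H2-3 on day 1 EIF4E2 was called higher with normexp background correction (0.40, adjusted p = 0.0269). Keeping only probes well above background on all arrays also called it there (0.44, 0.045).

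EIF4E, the cap-binding protein itself, was not called. It was at -0.85, 0.09, -0.29, -0.20 and -0.02 in H0 and at -0.74, 0.39, 0.51, 0.55 and 0.70 in H2-3 on day 2, where 4 of 5 arrays lay above H0 and baboon 1 was near the bottom of the H0 range. The difference was 0.54 ± 0.25 (adjusted p = 0.132), and without baboon 1 of that group it was 0.79 (adjusted p = 0.0194). Its other probes, well above background on 19 and 12 arrays, gave -0.27 and 0.58 there and -0.86 and -0.20 in H2-3 on day 1, where the probe used gave 0.19. EIF4A1, the main helicase, was at 4.18, 4.02, 4.00, 4.58 and 3.87 in H0 and at 4.82, 4.31, 4.41, 4.67 and 5.10 in H2-3 on day 1, with 3 of 5 above H0. Its difference of 0.53 ± 0.20 just missed the threshold (adjusted p = 0.0526), and its other 3 probes gave 0.43, 0.50 and 0.70. EIF4A1 was called higher there with normexp background correction (0.54, adjusted p = 0.0292) and with the mean of its probes (0.54, 0.0422). It was also called without H0 baboon 4 (0.65, 0.0275) or H2-3 baboon 2 (0.62, 0.0365) or 3 (0.60, 0.0486). Quantile normalization and the percentile over detected probes did not call it. EIF4A2, EIF4A3, EIF4B and EIF4H differed from H0 by -0.24 to 0.24 in all 4 groups.

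EIF4EBP1, the 4E-BP that holds eIF4E when mTOR is inactive, rose in H2-3 on day 1. Its H0 levels were 1.71, 1.52, 1.51, 1.79 and 1.34. On day 1 they were 1.94, 2.88, 1.93 and 2.16 in H1-2 and 2.29, 2.07, 2.07, 2.13 and 3.00 in H2-3, and all 9 lay above every H0 array. On day 2 they were 1.74, 1.95, 2.11 and 1.79 in H1-2 and 2.31, 1.58, 1.83, 1.54 and 2.25 in H2-3, which overlaps H0. The rise was 0.74 ± 0.22 in H2-3 on day 1 (adjusted p = 0.0143), 1.67-fold, and the difference was 0.66 ± 0.23 in H1-2 (adjusted p = 0.0741). Within the first scan day, which leaves 3 H0 arrays, the value in H2-3 was 0.77 (adjusted p = 0.0581), and with the percentile over detected probes it was 0.56 (0.0582). EIF4EBP2, its paralogue, differed by 0.22 ± 0.18 there, and EIF4ENIF1, the transporter that takes eIF4E to the nucleus, by -0.17.

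**Figure D4:**
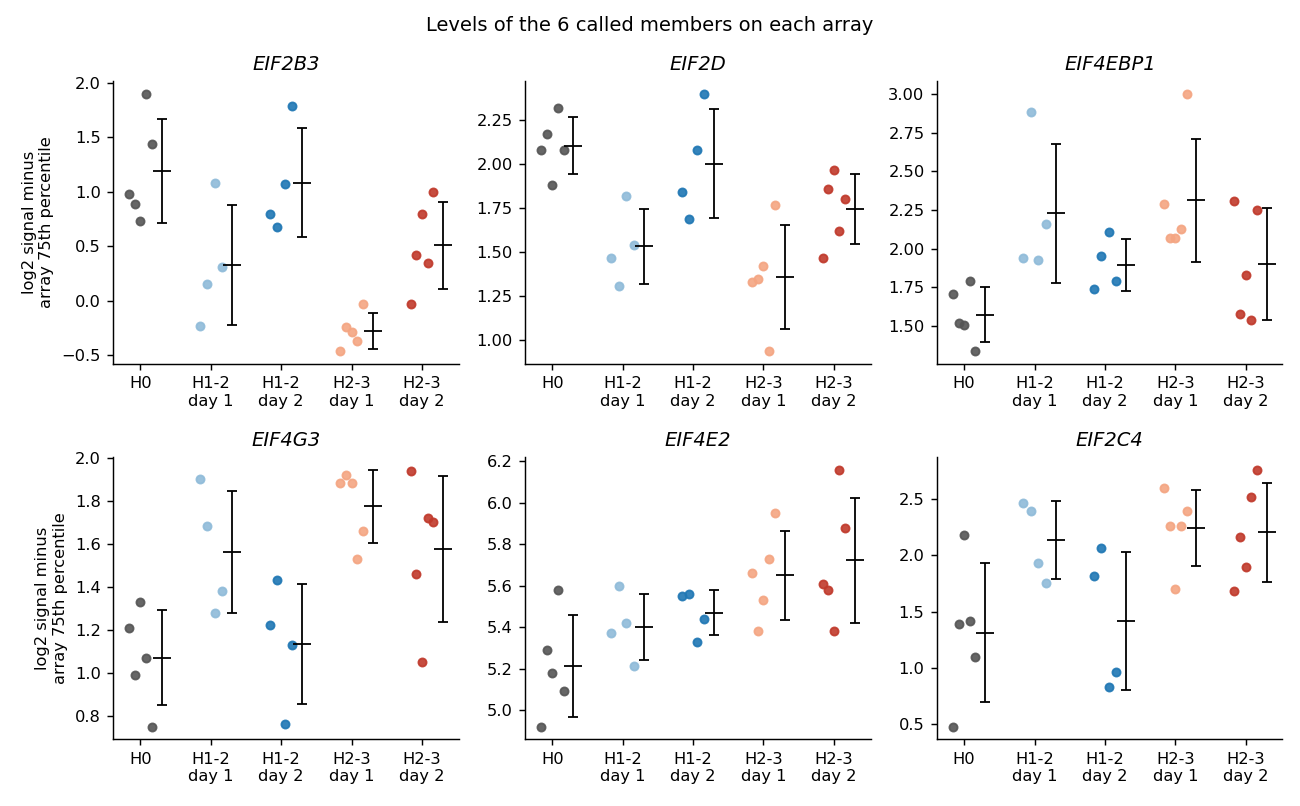
Level of the 6 called members on each array (y axis, log2 signal relative to the array's 75th percentile; each panel has its own range) in the 5 groups on the x axis. Points are arrays and bars are the mean ± SD; EIF2B3 and EIF2D are lowest and EIF4EBP1 and EIF4G3 highest in H2-3 on day 1, and H1-2 on day 2 overlaps H0 in every panel.

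No factor of scanning and start codon choice was called in the main fit. EIF1, which guards start codon choice, differed from H0 by 0.28 to 0.49 in the 4 groups, and EIF1B, its paralogue, by 0.39 to 0.59. EIF1AX and EIF1AY, the X-linked and Y-linked copies of eIF1A, ran together with the probes used. They were at -0.43 ± 0.18 and -0.29 ± 0.17 in H1-2 on day 1 (adjusted p = 0.125 and 0.253), and at -0.27 and -0.13 in H2-3 on day 1. EIF1AX was called lower in H2-3 on day 1 with quantile normalization (-0.48, adjusted p = 0.0405) and the deposited value table (-0.48, 0.0453). Normexp background correction called it lower on day 1 in H2-3 (-0.35, 0.0499) and in H1-2 (-0.44, 0.0484). The other EIF1AX probes gave -0.43 and -0.45 in H1-2 and -1.26 and -0.35 in H2-3 on day 1. The other EIF1AY probe was well above background on 0 arrays. EIF1AY was at 2.69 to 2.93 in H0 and 2.58 to 2.72 in H2-3 on day 1. The human probes for the 2 copies may also take up RNA of the other copy, so they are not independent. EIF5, which triggers GTP hydrolysis by eIF2, was dim, at -3.64 to -2.43 in H0 and -2.97 to -0.89 in H2-3 on day 2, a difference of 0.99 ± 0.34 (adjusted p = 0.0547). It was well above background on 2 of 5 arrays of H0 and 5 of 5 of H2-3 on day 2, and was called higher there without H0 baboon 2 or 5 or H2-3 baboon 2 or 3, at 1.14 to 1.21. EIF5B, which joins the large subunit, was at -0.25 and -0.28 on day 1. With the percentile over detected probes, EIF5B (-0.46, adjusted p = 0.0441) and EIF1AD (-0.59, 0.0137) were called lower in H2-3 on day 1.

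EIF5A, EIF5AL1, EIF5A2 and EIF6 were not called in any comparison. EIF5A, which carries the modified lysine hypusine, was at 3.21, 2.26, 3.23, 3.39 and 3.13 in H0 and 3.14, 2.13, 2.22, 2.22 and 2.66 in H2-3 on day 2, a difference of -0.57 ± 0.25 (adjusted p = 0.115). The groups overlapped through baboon 2 of H0 and baboon 1 of H2-3, and without the first the difference was -0.76 (adjusted p = 0.0448), without the second -0.73 (adjusted p = 0.0432). EIF5AL1, an intronless copy of EIF5A that its probe may not tell apart, was at -0.90 ± 0.41 there. EIF5A2, a dim paralogue, was well above background on 3 of 5 arrays of H0, 0 of 4 of H1-2 on day 1 and 1 of 5 of H2-3 on day 2. It was at -3.24 to -1.96 in H0 and at -5.32, -3.24, -2.68, -3.60 and -3.21 in H2-3 on day 2, with the lowest value in baboon 1. EIF6, which keeps the ribosomal subunits apart, differed from H0 by -0.17 to 0.02 and was at 4.91 to 5.66 in H0 and 4.84 to 5.33 in H2-3 on day 2.

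Of the Argonautes, EIF2C4 (AGO4) rose in H2-3 on both days. It was at 0.48, 1.39, 2.18, 1.42 and 1.10 in H0, at 2.6, 2.26, 1.70, 2.26 and 2.39 in H2-3 on day 1 and at 1.68, 2.16, 1.90, 2.52 and 2.76 in H2-3 on day 2. Baboon 3 of H0, at 2.18, overlapped both groups. In H1-2 it was at 2.46, 2.39, 1.93 and 1.75 on day 1 and 1.82, 2.06, 0.83 and 0.96 on day 2. The rises were 0.93 ± 0.30 (adjusted p = 0.0241) and 0.89 ± 0.30 (adjusted p = 0.0487), 1.9-fold and 1.85-fold. The day 1 call did not hold without H0 baboon 1 (0.72, adjusted p = 0.0775), H0 baboon 5 (0.87, 0.0543) or H2-3 baboon 1 (0.84, 0.063), nor within the first scan day (0.67, 0.095) or with the percentile over detected probes (0.74, 0.0509). The day 2 call did not hold without H0 baboon 1, 2, 4 or 5 or H2-3 baboon 2, 4 or 5, with adjusted p between 0.0667 and 0.152 and differences between 0.68 and 0.91. EIF2C1, EIF2C2 and EIF2C3 differed from H0 by -0.34 to 0.27 and were not called.

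The categories were not told apart by any member. On day 1, 0 members and 0% of all genes were called between H2-3 and H1-2 (1223 genes at an unadjusted p under 0.05), and on day 2 again 0 members and 0% (2065 genes). EIF2B3 was 0.60 lower in H2-3 on day 1 than in H1-2, with a 95% interval from -1.19 to -0.01 and an adjusted p of 0.858. For EIF2D the difference was -0.17 (-0.56 to 0.21), for EIF4EBP1 0.08 (-0.40 to 0.56) and for EIF4G3 0.21 (-0.19 to 0.62). On day 2, EIF2C4 was 0.79 higher in H2-3 (0.13 to 1.44, adjusted p = 0.509). A change called in H2-3 and not in H1-2 is thus not shown to differ between them. The arrays of both categories share slides, and with the slide as a block 0 members were called between categories on either day.

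No member was called between day 1 and day 2. In H1-2, 38 of 50 differences were positive with a median of 0.24, where the median of all genes was -0.08. At an unadjusted p under 0.05, 18 members were higher and 2 lower, beside 4960 of all genes in either direction. After adjustment 0 members were called, and 0% of all genes were. All 13 eIF3 subunits were positive, with EIF3E at 1.03 ± 0.29 (adjusted p = 0.128), EIF3M at 0.76 ± 0.22 (0.131) and EIF3G at 0.71 ± 0.22 (0.133). In H2-3, 30 were positive with a median of 0.07, and 0 were called beside 1.74% of all genes that rose and 1.24% that fell. EIF2B3 was 0.78 ± 0.27 higher on day 2 (adjusted p = 0.0838) and higher in each of the 5 baboons, by 0.43 to 1.09. With the baboon as a random block the tests called 3 members in H1-2, all higher (EIF3E, EIF3G and EIF3M, adjusted p = 0.0382, 0.0411 and 0.0414). In H2-3 they called EIF2B3 higher (adjusted p = 0.0288). That fit called 464 of all genes higher and 440 lower in H1-2, and 1449 and 1954 in H2-3. With a fixed replicate block 0 members were called in either category. The day differences themselves did not differ between categories for any member, with 0 called and 0% of all genes, although 37 of the 50 were lower in H2-3. Within each of the 4 baboon numbers of H1-2, whose pairing the correlations did not bear out, 9 members were higher on day 2, 5 of them eIF3 subunits, and 3 were lower (EIF2C4, EIF4EBP2 and EIF4G3). Within each of the 5 of H2-3, 7 were higher, among them EIF2B3, EIF2B4, EIF2B5 and EIF2D, and 0 were lower. How many of all genes moved 1 way in every baboon was not counted, so these counts are not set against a share. Without H2-3 baboon 1 on day 2, EIF2B3, EIF2B1 and EIF2S1 were called higher on day 2, at 0.91, 0.56 and 0.74 (adjusted p = 0.0315, 0.0318 and 0.0339).

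Regulators of initiation outside the members were read from fixed lists. Of all genes, 14.9% rose and 13.5% fell in H2-3 on day 1, and 10.3% and 4.47% on day 2. Of the 4 eIF2 alpha kinases, EIF2AK2 (PKR, an interferon-induced kinase) fell in H2-3 on day 1 by 1.07 ± 0.28 (adjusted p = 0.007), and EIF2AK1, EIF2AK3 and EIF2AK4 were at -0.18, 0.56 and 0.27. Of 12 targets of the integrated stress response, the program that follows eIF2 alpha phosphorylation, 5 rose and 2 fell in H2-3 on day 1, with a median of 0.51. ATF3 rose by 1.26 ± 0.37, DDIT3 (CHOP) by 1.27 ± 0.35 and CEBPB by 1.64 ± 0.43, all transcription factors. With the scan day as a block none of these 3 was called, at 1.13, 0.92 and 1.15 (adjusted p = 0.0689, 0.0896 and 0.0772), and CEBPB was not called within the first scan day (1.15, 0.0731). PPP1R15A (0.85) and PPP1R15B (0.99), which bring a phosphatase to eIF2 alpha, rose too, with adjusted p of 0.0385 and 0.0447. Both calls were lost in most fits that left out 1 array: PPP1R15A kept it only without H0 baboon 3 or 4 or H2-3 baboon 2, and PPP1R15B only without H0 baboon 2, 3 or 5 or H2-3 baboon 5. TRIB3 (-1.55 ± 0.45) and ASNS (-1.39 ± 0.27), the asparagine synthetase gene, fell. TRIB3 was not called with the scan day as a block (-1.48, adjusted p = 0.0532). ATF4, the regulator that eIF2 alpha phosphorylation favours at the level of translation, was at 0.26 ± 0.21 and was not called. On day 2 in H2-3, ATF3 was 1.7 and DDIT3 1.19 above H0, and the DDIT3 call did not hold without H0 baboon 1 (0.84) or 5 or H2-3 baboon 4 or 5. In H1-2 on day 1, 0 of the 12 were called. CEBPB is also abundant in myeloid cells, whose markers rose in the same groups; their part in its rise was not tested.

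**Figure D5:**
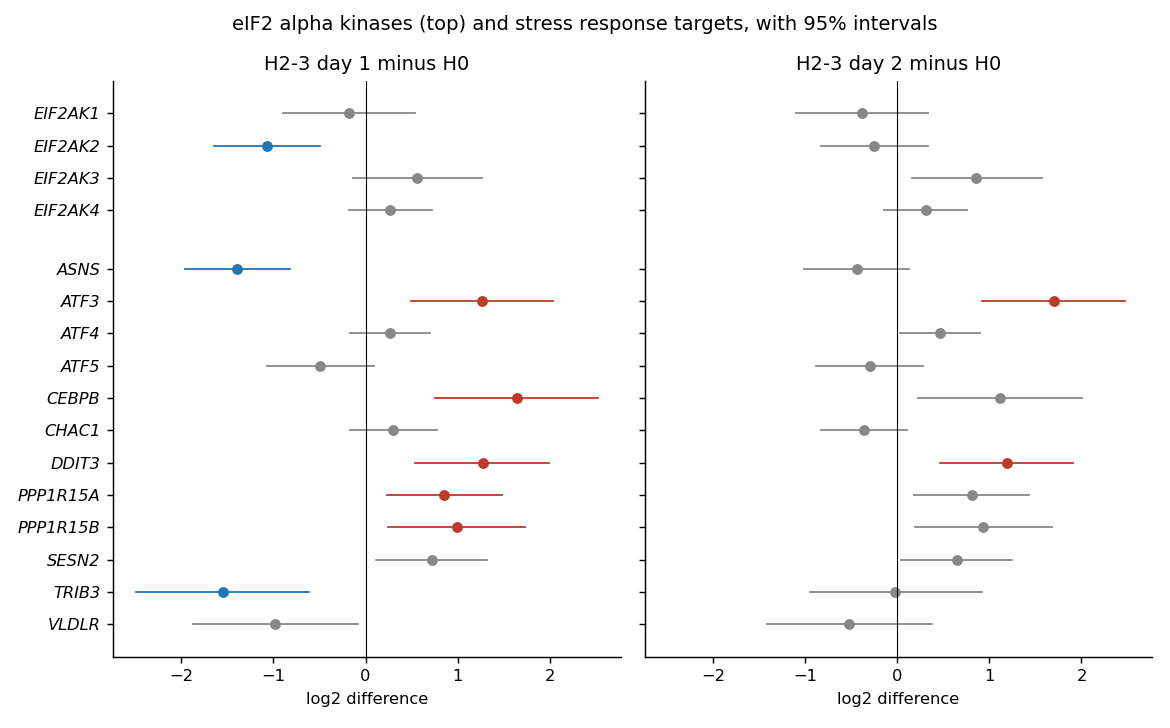
Log2 difference from H0 (x axis) of the 4 eIF2 alpha kinases and 12 targets of the integrated stress response in H2-3 on day 1 (left) and day 2 (right). Points are differences of group means and bars 95% intervals; red marks genes that rose (5 on day 1, 2 on day 2) and blue genes that fell (EIF2AK2, ASNS and TRIB3 on day 1).

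Among 15 poly(A) binding and initiation regulators, 2 rose and 4 fell in H2-3 on day 1, beside 14.9% and 13.5% of all genes. On day 2 in H2-3, 1 rose (MKNK1) and 2 fell (PABPC4 and ABCE1), beside 10.3% and 4.47% of all genes. ABCE1 kept its call in 8 of 10 other settings and in 7 of 10 fits that left out 1 array. MKNK1, a kinase that phosphorylates eIF4E, rose in H2-3 by 1.64 ± 0.31 on day 1 (adjusted p = 0.000675) and by 1.26 ± 0.31 on day 2, and in H1-2 on day 1 by 1.11 ± 0.33 (adjusted p = 0.0411), while MKNK2 was at 0.14, -0.04 and 0.10. The H1-2 call was lost without H0 baboon 1, 4 or 5 or H1-2 baboon 1, 2 or 4 (0.87 to 1.18), and the H2-3 call on day 2 without H0 baboon 1 or H2-3 baboon 4. PABPC4, an inducible poly(A) binding protein, fell in the same 3 groups, by 0.86 ± 0.15, 0.52 ± 0.15 and 0.74 ± 0.16. Its call in H1-2 was lost without baboon 1 of that group, and that in H2-3 on day 2 without H0 baboon 1 or 4 or H2-3 baboon 4. DAP rose (0.55), and PAIP1 (-1.03) and PAIP2B (-1.61), both partners of poly(A) binding protein, and PDCD4 (-0.73), an inhibitor of eIF4A, fell in H2-3 on day 1. PAIP2B kept its call only without H0 baboon 3 or H2-3 baboon 5, PDCD4 only without H0 baboon 1 or 3, and the mean of PAIP1's probes gave -0.37. DAP kept its call in 7 of 13 other settings, and had 0.37 with quantile normalization (adjusted p = 0.0721), 0.36 with the percentile over detected probes (0.0871) and 0.50 with the scan day as a block (0.0644). In H1-2 on day 1, 1 of the 15 rose and 1 fell, MKNK1 and PABPC4, beside 4.17% and 4.42% of all genes. Of the mTOR pathway, 2 of 12 fell in H2-3 on day 1, beside 13.5% of all genes. They were DEPTOR (-0.80 ± 0.27) and RPTOR (-0.54 ± 0.15), and MTOR itself was at -0.18. DEPTOR was not called without H0 baboon 1 or H2-3 baboon 1 or 3, with the scan day as a block (-0.69, adjusted p = 0.114) or with normexp (-0.20, 0.198). Of 10 elongation and termination factors, EEF1B2 fell on day 1 in both categories (-0.89 ± 0.27 in H1-2, -0.70 ± 0.25 in H2-3) and GSPT2 in H2-3 (-0.65 ± 0.18). Of all genes, 4.42% fell in H1-2 and 13.5% in H2-3 on day 1. EEF1B2 kept its call in H1-2 only without H0 baboon 3 or H1-2 baboon 3, and in H2-3 only without H0 baboon 3 or H2-3 baboon 1 or 5.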

How the data were processed

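Whole-blood RNA of 23 samples was read on human Agilent arrays with Agilent Feature Extraction 10.7.3.1, per the submitters' processing notes. The deposited scanner files hold background-subtracted spot intensity on a linear scale. The deposited value table holds log2 values by the authors for 39726 probes, of which 39637 matched a probe by name; each column correlated best with its own array, its column medians were 4.703, its direction was positive, and how its probes were chosen stays unknown.

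Log2 of the processed signal was taken, spots of a probe were averaged, and the array's 75th percentile (80.9 to 156.4) was subtracted. Probes well above background on at least 4 arrays (27263) were kept, on arrays with 41.5 to 51.4% of probes well above background, and the brightest probe stood for its gene. The number of arrays limits the precision. limma 3.58.1 in R 4.3.3 fitted 5 group means to 21167 genes at once, two-sided, with Benjamini-Hochberg adjustment, and was tested on simulated data. Slides (7), scan days (3), the baboon, scaling, background correction, filters, probe choice and left-out arrays were alternatives. The labels number the baboons on both days, which pairs them: same-numbered arrays correlated at 0.06 to 0.39 in H1-2 and 0.05 to 0.44 in H2-3, and a different number correlated higher for all 4 baboons of H1-2 and for 1 of 5 of H2-3.

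Members, lists and tests were chosen with earlier results of these data known. All members may be named. Array values were given by rule for the 2 members per role with the smallest F-test p over the groups and for EIF4EBP1, EIF4E, EIF4A1, EIF2S1, EIF5A, EIF6 and EIF1AY; other genes come from fixed lists. The sequence of the EIF2B3 probe is not reported here.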

Additional observations from a re-analysis of the deposited data

Results flagged for a closer look

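Over 22 members and 5 groups, 110 sets of 4 or 5 arrays were examined for an array far from the others of its group, and 11 had one (10%), where chance gives about 1 in 20. Of these 11, 5 were the same array, H2-3 on day 2, baboon 1: EIF1AY at 2.47 (nearest other array 2.86), EIF2A at -0.29 (0.43), EIF2S1 at -2.07 (-0.87), EIF3I at 3.24 (3.58) and EIF4E at -0.74 (0.39), each the lowest of its group. That array had 50.4% of probes well above background, inside the range of the others. Without it, EIF4E (0.79), EIF4G2 (0.79, adjusted p = 0.0368) and EIF5A (-0.73) were called against H0 on day 2, and EIF2B3, EIF2B1 and EIF2S1 were called between days. The rest were spread over other arrays. EIF4EBP1 was 3.00 in H2-3 on day 1, baboon 5 (nearest 2.29), and EIF6 was 5.55 on the same array (5.15). EIF4A1 was 4.32 in H2-3 on day 2, baboon 3 (4.48). EIF5A was 2.26 in H0, baboon 2 (3.13) and 2.39 in H2-3 on day 1, baboon 4 (2.67). EIF2B5 was 2.13 in H1-2 on day 1, baboon 3 (1.52).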

How the results depend on the processing

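No called member changed direction under any alternative. In H2-3 on day 1 the count of 5 members became 16 with the percentile over detected probes, 14 with quantile normalization, 14 with the deposited value table, 9 with normexp, 8 with probes well above background on all arrays and 0 with the slide as a fixed block, which ties H0 to the irradiated arrays through a single slide; leaving out 1 array gave 4 to 7. In H1-2 on day 1 the count of 0 became 5, 6, 4, 2 and 2 under the first 5 of these, and 0 to 3 without 1 array (3 without H0 replicate 3 or H1-2 replicate 3). Of all genes, these 5 settings called 5894, 5970, 5782, 5366 and 4763 in H2-3 on day 1, against 6011 in the fit used here. In H1-2 they called 2312, 2107, 1769, 2049 and 1963, against 1818. In H2-3 on day 2 the count of 2 members became 0 with quantile normalization, the deposited value table, no filter, the slide as a random block and only the groups compared, and 0 to 5 without 1 array (5 without H2-3 replicate 1 or 3). Of all genes, quantile normalization, the deposited value table and no filter called 2676, 1999 and 2082 there, against 3122 in the fit used here. The baboon as a random replicate block changed the day counts from 0 to 3 members in H1-2 and 1 in H2-3. That fit called 904 and 3403 of all genes between days. The fixed block left both member counts at 0, also without H1-2 baboons 3 and 4, and the block changed no other member call. Leaving out 1 array gave 0 to 2 in H1-2 and 0 to 3 in H2-3 between days. Day 2 against H0 or day 1 could not be fitted with slide or scan day as a fixed block. The cause of these changes was not tested. Arrays of the first scan day alone, chosen after seeing the data, gave 7 members in H2-3 and 0 in H1-2 on day 1. Counts over all genes are not given here for that fit, the slide blocks, only the groups compared or 1 array left out. The member counts of those fits are thus not set against a share. Signal over background limits EIF5 and EIF5A2.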
